A study of Rattus norvegicus with 12 samples.

Results

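Translation initiation and elongation factors are the proteins that load ribosomes onto mRNA and move them along it. Here their transcripts are described in hippocampal CA1 of rats. The members were all probe sets whose 1 annotated gene symbol begins with Eif or Eef, 66 of the 15923 probe sets in the deposited table, for 56 of the 10411 genes that have a probe set of their own. Of these, 58 probe sets for 52 genes had a mean of at least 4 over all arrays and were tested. The other 8 were too dim. A further 4 probe sets carry a factor symbol together with another symbol, so eIF5 itself and eIF3 subunit e are not analysed here.

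Young male Long-Evans rats, 3 to 4 months old, had all been trained in a standard water maze. After 2 to 3 weeks they had a session of 8 trials at intervals of 8 minutes in another maze at another site. In the control task group the visible platform moved between trials and orienting cues were absent. In the spatial learning group cues were present and the visible platform stayed in one place. Both groups had a 90-second probe trial without the platform 1 hour after the last trial, and CA1 was dissected immediately afterwards. Each group had 6 rats and 6 Affymetrix RAE230A arrays, 1 array per rat. CA1 tissue holds neurons, glia and vessels, so fewer cells of a type and less RNA per cell cannot be told apart.

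In initiation, eIF2 brings the initiator tRNA to the small ribosomal subunit, eIF4E binds the mRNA cap, eIF4G and the helicase eIF4A prepare the mRNA, and eIF3 holds these parts to the ribosome. In elongation, eEF1A delivers aminoacyl-tRNA and eEF2 moves the ribosome by a codon. In hippocampal neurons new protein synthesis is needed for long-lasting memory, and it is controlled largely by phosphorylation of eIF2 alpha, the eIF4E-binding proteins and eEF2. An array reads mRNA levels, not these phosphorylations and not the rate of translation.

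Values are log2 probe set summaries, and all differences are spatial learning minus control task. The groups' levels are compared for the same probe set only, since probe sets differ in how well they hybridise. Pairs of arrays correlated at 0.989 to 0.995 over the probe sets tested. Control replicate 3 stood apart in choroid plexus transcripts (Ttr at 13.41, against 8.79 on control replicate 6 and at most 7.54 elsewhere), and control replicate 6 and spatial learning replicate 6 in meningeal ones (Ptgds at 12.66 and 12.52, against at most 10.94 on the other arrays). Ttr was also higher on every control (4.55 to 13.41, median 6.81) than on every spatial learning array (3.66 to 4.43). Leaving out the arrays that stood apart therefore does not remove its difference between the groups. Enpp2 (-0.41) and Kcne2 (0.18) overlapped between the groups. Averaged over 3 tested choroid plexus markers of 8 on the array, controls ran from 5.94 to 9.49 and spatial learning arrays from 5.70 to 6.05. Averaged over 6 meningeal markers of 10, they ran from 6.35 to 7.95 and from 6.29 to 7.70. The gap between the 3' and 5' probe sets of the hexokinase control transcript, a sign of RNA integrity, averaged 1.48 ± 0.08 over controls and 1.65 ± 0.11 over spatial learning arrays (SD, n = 6 each, 2-sided exact permutation p = 0.00433). CA1 markers were present, with all 8 tested above 0 in difference (per-array mean level 10.41 to 10.74 in controls, 10.62 to 10.95 after spatial learning). All 5 tested dentate granule cell markers had differences below 0 (7.04 to 7.54 and 6.87 to 7.24). Of the glial markers 8 of 8 tested for microglia (6.77 to 7.33 and 6.75 to 7.14) and 8 of 9 for astrocytes (10.20 to 10.34 and 10.11 to 10.28) also had differences below 0. Other lists were mixed, with differences below 0 in 6 of 8 oligodendrocyte, 2 of 4 CA3, 3 of 8 interneuron and 3 of 5 vessel markers. All spatial learning arrays but replicate 1 had a larger hexokinase gap than every control. The gap and the group can therefore hardly be told apart. A difference that shrinks, grows or turns with the gap as a covariate does not show how much of it RNA integrity accounts for. The part of the hexokinase gap and of these markers in the factor results was not tested beyond the values given below.

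No translation factor transcript passed the test of a difference between the groups. After spatial learning 31 of the 58 probe sets stood higher, beside 53.7% of all probe sets tested, and 27 stood lower. The median difference was 0.013 over the members and 0.0079 over all 9610 probe sets tested. With limma and Benjamini-Hochberg adjustment over all 9610, 0 members passed at 0.05, where 0% of all probe sets passed. At an unadjusted limma p under 0.05, 1 member was higher (Eif3b) and 3 were lower (Eif4e3, a dim probe set of Eif4g1, and Eef1e1), while 6.36% of all probe sets were higher and 4.55% lower by that rule. The exact rank-sum test also gave 0 calls after adjustment and 5 members at an unadjusted p under 0.05, beside 9.32% of all probe sets by that test. In 0 members did all 6 spatial learning arrays lie above all 6 controls, where 0.364% of all probe sets did, and in 0 did they lie below, where 0.271% did.

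Judged by the spread between rats alone, most of these differences were limited closely. The limma intervals do not allow for the hexokinase gap, which nearly follows the group. The shares over all probe sets given here are not matched on level. The 95% interval of the difference lay wholly within 0.25 on either side of 0, a fold of 1.19, for 44 of the 58 members, 75.9%, beside 61.2% of all probe sets tested. The median SE of a difference was 0.059 for the members and 0.068 for all probe sets. Only 2 members, Eif4e3 and the dim Eif4g1 probe set, differed by 0.2 or more in size, beside 7.79% of all probe sets. The 52 members with a mean of at least 6 had differences from -0.18 (Eif2b1) to 0.14 (Eef2k). Their mean per array ran from 9.09 to 9.15 in each group.

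**Figure D1:**
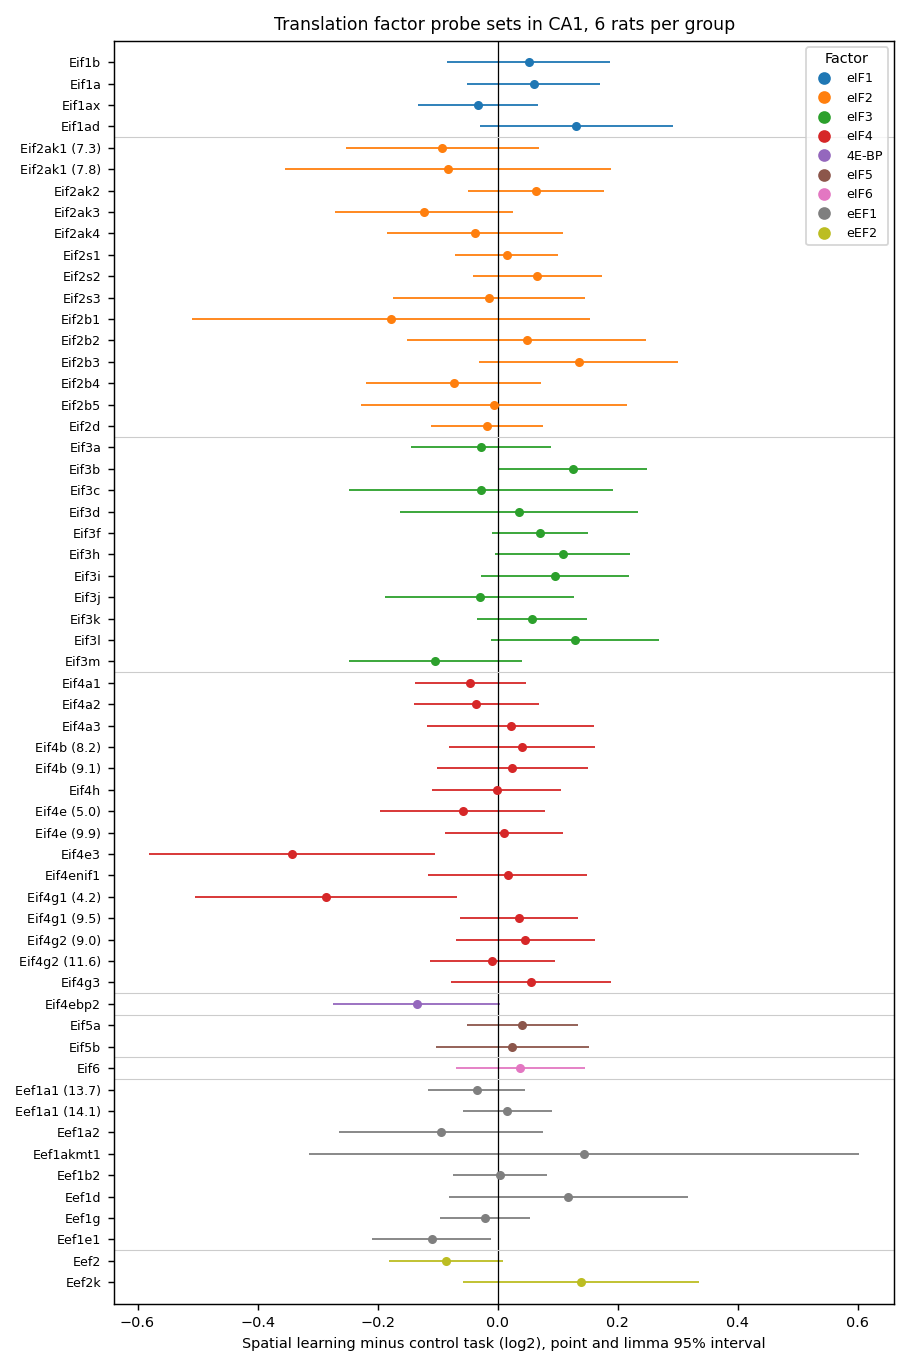
Difference between spatial learning and control task (log2, horizontal axis) for each of the 58 tested probe sets, grouped and coloured by factor, with limma's 95% interval. Labels with a number in brackets give the mean level of probe sets that share a gene. Most points lie within 0.15 of 0, and 4 intervals leave out 0, those of Eif4e3, the dim Eif4g1 probe set, Eef1e1 and Eif3b.

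**Figure D2:**
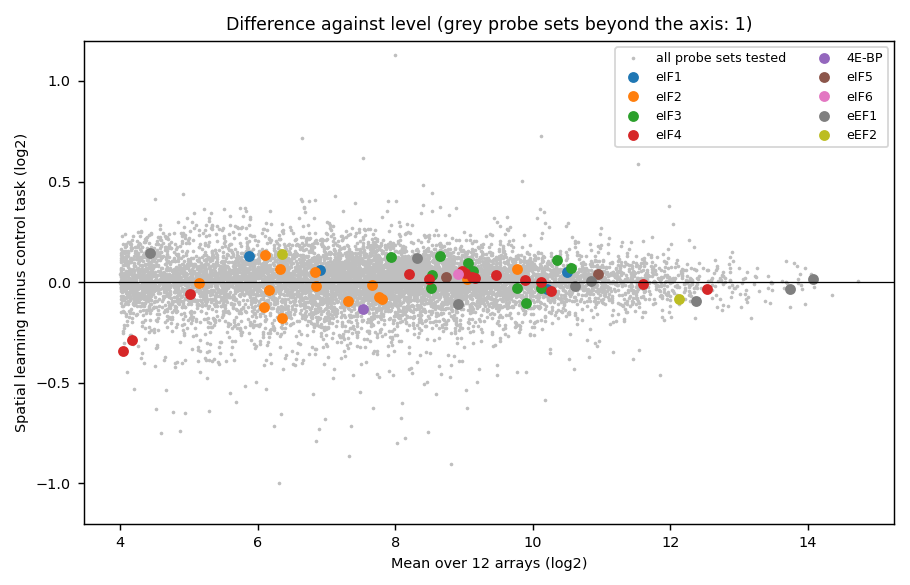
Difference (log2, vertical axis) against the mean over 12 arrays (log2, horizontal axis) for all 9610 probe sets tested (grey) and the members (coloured by factor). The vertical axis ends at 1.2 on either side and leaves out 1 grey probe set. The members lie inside the grey cloud at every level, and the widest differences belong to members near the lower limit of 4.

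eIF2, the carrier of the initiator tRNA, is a trimer whose alpha subunit, Eif2s1, is the target of the stress kinases. Eif2s1 ran from 8.99 to 9.07 with a median of 9.06 in the control task group and from 8.93 to 9.15 with a median of 9.07 in the spatial learning group. Spatial learning replicate 1 lay below every control and replicates 3 and 5 above, so that this group enclosed the controls. The difference was 0.015 (SE 0.040, 95% interval -0.071 to 0.10, limma adjusted p = 0.917), -0.0032 without spatial learning replicate 5 and -0.026 with the hexokinase gap as a covariate. The beta subunit Eif2s2 stood at 0.066 and the gamma subunit Eif2s3 at -0.014. Eif2d, which encodes a separate initiator tRNA-binding factor, differed by -0.018.

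The 4 kinases that phosphorylate eIF2 alpha each answer another stress. Eif2ak3, which encodes PERK of the endoplasmic reticulum, ran from 6.02 to 6.30 (median 6.14) in the control task group and from 5.84 to 6.17 (median 6.06) in the spatial learning group. Its 2 lowest spatial learning arrays, replicates 1 and 5, lay below every control, and the rest fell within the control range. The difference was -0.12 (SE 0.069, 95% interval -0.27 to 0.025, limma adjusted p = 0.538), and -0.21 with the hexokinase gap as a covariate. Eif2ak4, which encodes the amino acid sensor GCN2, ran from 6.14 to 6.20 (median 6.19) and from 5.82 to 6.26 (median 6.19). Spatial learning replicate 5 alone lay far below, replicates 1 and 3 lay slightly above every control, and the difference of -0.038 became 0.027 without it. Both probe sets of Eif2ak1, the haem-regulated kinase, differed in the same direction, at -0.092 and -0.082, and Eif2ak2, the double-stranded RNA-activated kinase PKR, stood at 0.065. Over the 5 kinase probe sets 4 were lower, with a median of -0.082, and 0 passed the test.

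eIF2B is the exchange factor that recharges eIF2 with GTP and the complex that phosphorylated eIF2 blocks. Of its 5 tested probe sets 2 stood higher, with a median of -0.0053. Eif2b3 ran from 5.85 to 6.17 (median 6.08) in the control task group and from 6.04 to 6.38 (median 6.13) in the spatial learning group. Its difference was 0.13 (SE 0.077, limma adjusted p = 0.541), with 3 of 6 spatial learning arrays above the highest control. Eif2b5, the catalytic subunit, ran from 4.90 to 5.34 (median 5.21) and from 4.94 to 5.44 (median 5.14), a difference of -0.0053 with a 95% interval of -0.23 to 0.22, and -0.19 without the 3 arrays that stood apart (limma adjusted p = 0.399, and 0.399 to 1 over all alternatives). A second Eif2b5 probe set, with a mean of 3.41, was too dim to test. Eif2b1 at -0.18, Eif2b2 at 0.048 and Eif2b4 at -0.073 completed the complex, and Eif2b1 had the widest spread between rats of these, from 5.92 to 6.90 over both groups.

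The small factors eIF1 and eIF1A help the ribosome find the start codon. Eif1b, a copy of eIF1, stood at 0.052, and the eIF1A genes Eif1a and Eif1ax at 0.060 and -0.032. Eif1ad, an eIF1A-domain protein, ran from 5.63 to 5.89 (median 5.82) in the control task group and from 5.69 to 6.15 (median 5.94) in the spatial learning group. In 4 of 6 spatial learning rats it lay above the highest control, with a difference of 0.13 (SE 0.075, limma adjusted p = 0.542). With the hexokinase gap as a covariate that difference was 0.031. Averaged over the 4 probe sets, the level per array was 8.29 to 8.37 and 8.36 to 8.42, with 5 of 6 spatial learning arrays above the highest control. That mean was singled out after its values were seen and was given no test. It was not alone: averaged over the 15 tested eIF4 probe sets, 5 of 6 spatial learning arrays lay below the lowest control. Over the 3 tested probe sets of Eif4e and Eif4e3 all 6 did, and over the 12 eIF4 probe sets with a mean of at least 6 only 1 did. Shares for means of other probe sets were not counted.

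eIF3, the largest initiation factor, is a scaffold of many subunits. Among 11 subunits tested 7 stood higher and 4 lower (median 0.057), and 10 of the 11 intervals lay within 0.25 of 0. Eif3b, which encodes a core scaffold subunit, ran from 7.71 to 8.00 (median 7.88) in the control task group and from 7.87 to 8.10 (median 7.98) in the spatial learning group. The 2 highest values were spatial learning replicates 5 and 6, and 4 spatial learning arrays lay within the control range. The difference was 0.13 (SE 0.057, 95% interval 0.0032 to 0.25, limma p = 0.0451, limma adjusted p = 0.447, exact permutation p = 0.0368, unadjusted). With the hexokinase gap as a covariate it was 0.051 (limma adjusted p = 0.913, and 0.414 to 0.913 over all alternatives). Since the gap nearly follows the group, that value cannot separate RNA integrity from the task.

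Other eIF3 subunits, none past the test, also had overlapping groups. Eif3h ran from 10.11 to 10.40 (median 10.33) in the control task group and from 10.28 to 10.45 (median 10.43) in the spatial learning group. All spatial learning arrays but replicate 4 exceeded the highest control, replicate 6 only barely. The difference was 0.11 (SE 0.052, limma adjusted p = 0.471), 0.042 with the hexokinase gap as a covariate and 0.070 without control replicate 5. Eif3l ran from 8.47 to 8.66 (median 8.59) and from 8.54 to 8.94 (median 8.68), a difference of 0.13 (SE 0.065, limma adjusted p = 0.489), and its highest arrays were spatial learning replicates 5 and 6, as for Eif3b. The Eif3l difference was 0.068 with the hexokinase covariate and 0.084 without spatial learning replicate 5. Eif3f ran from 10.42 to 10.61 (median 10.51) and from 10.55 to 10.65 (median 10.57), with a difference of 0.070 (SE 0.037, limma adjusted p = 0.509). Both Eif3f and Eif3h encode the MPN-domain subunits of the complex.

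Eif3i ran from 8.90 to 9.21 (median 8.97) in the control task group and from 9.03 to 9.19 (median 9.10) in the spatial learning group, so that its spatial learning values lay wholly inside the control range. The difference was 0.096 (SE 0.057, limma adjusted p = 0.563), and 0.028 with the hexokinase covariate. Eif3m went the other way, from 9.88 to 10.03 (median 9.95) and from 9.63 up to a value just under that highest control (median 9.93), a difference of -0.10 (SE 0.067, limma adjusted p = 0.597). Spatial learning replicates 1 and 5 were low while the medians were nearly equal, and the difference was -0.065 without the one, -0.060 without the other and -0.17 with the hexokinase covariate. Eif3k stood at 0.057 and Eif3d at 0.035, while Eif3a at -0.028, Eif3c at -0.028 and the loosely held subunit Eif3j at -0.030 lay slightly below 0. Averaged over the 11 subunits, controls stood at 9.30 ± 0.06 and spatial learning arrays at 9.34 ± 0.03 (mean ± SD, n = 6 each), with 1 of 6 spatial learning arrays above the highest control.

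The cap-binding side of initiation held the widest differences, both on probe sets near the lower limit of 4. Eif4e3 encodes an eIF4E family member that binds the cap in an atypical way. It ran from 3.81 to 4.42 (median 4.36) in the control task group and from 3.64 to 4.09 (median 3.90) in the spatial learning group. Of the controls, 4 lay above every spatial learning array, and replicates 3 and 6 lay among them. The difference was -0.34 (SE 0.11, 95% interval -0.58 to -0.10, limma p = 0.00827, limma adjusted p = 0.394, exact permutation p = 0.0281, unadjusted). Leaving out those 2 low controls, the arrays with choroid plexus and meningeal transcripts, together with spatial learning replicate 6 enlarges the difference by construction. It was then -0.52 (limma adjusted p = 0.0693, and 0.0693 to 0.778 over all alternatives), which adds no support to it, and the part of those transcripts was not tested.

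Eif4e encodes the canonical cap-binding protein. Its bright probe set ran from 9.82 to 9.95 (median 9.87) in the control task group and from 9.81 to 10.07 (median 9.87) in the spatial learning group. The medians were nearly equal, and the difference was 0.011 (SE 0.046, 95% interval -0.087 to 0.11, limma adjusted p = 0.948). A second Eif4e probe set, with a mean of 5.02, gave -0.058. Eif4e2 lay at a mean of 2.00, too dim to test, and Eif4enif1, which encodes the eIF4E transporter 4E-T, stood at 0.017.

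eIF4G is the scaffold that joins the cap-binding protein to the ribosome, and its main gene gave 2 answers. The probe set of Eif4g1 with a mean of 4.18 ran from 4.19 to 4.63 (median 4.22) in the control task group and from 3.69 to 4.27 (median 4.04) in the spatial learning group. It lay below the lowest control in 5 of 6 spatial learning rats, with a difference of -0.29 (SE 0.10, 95% interval -0.50 to -0.068, limma p = 0.0141, limma adjusted p = 0.423, exact permutation p = 0.0238, unadjusted). With the hexokinase gap as a covariate the difference was -0.045 (limma adjusted p = 0.949, and 0.356 to 0.949 over all alternatives). The probe set with a mean of 9.46 ran from 9.32 to 9.55 (median 9.45) and from 9.41 to 9.55 (median 9.48), a difference of 0.036 (SE 0.045, 95% interval -0.062 to 0.13, limma adjusted p = 0.808). Eif4g2, which encodes the eIF4G-like protein DAP5, gave 0.046 and -0.0086 on its 2 probe sets, and Eif4g3 stood at 0.056. Over the 6 genes with several tested probe sets the sign agreed in 2, Eif2ak1 and Eif4b, and was opposite in 4.

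The eIF4A helicases, which unwind the mRNA leader, differed little. Eif4a2, a main helicase gene of brain, ran from 12.43 to 12.66 (median 12.58) in the control task group and from 12.37 to 12.62 (median 12.52) in the spatial learning group. Its difference was -0.035 (SE 0.048, 95% interval -0.14 to 0.069, limma adjusted p = 0.826). Eif4a1 stood at -0.045 and Eif4a3, a component of the exon junction complex, at 0.022. The helicase partners Eif4b (0.040 and 0.024 on 2 probe sets) and Eif4h (-0.0013) lay near 0. Over all 15 tested eIF4 probe sets the median was 0.011 and the mean -0.035. Among the 12 with a mean of at least 6, 8 were higher, with differences from -0.045 to 0.056.

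The eIF4E-binding proteins hold eIF4E away from eIF4G until mTOR phosphorylates them, and Eif4ebp2 is the main one in brain. Eif4ebp2 ran from 7.41 to 7.74 (median 7.61) in the control task group and from 7.32 to 7.59 (median 7.48) in the spatial learning group. Spatial learning replicates 2, 3 and 4 lay below every control, and the other 3 within the control range. The difference was -0.13 (SE 0.065, 95% interval -0.27 to 0.0047, limma p = 0.0571, limma adjusted p = 0.471, exact permutation p = 0.0498, unadjusted). The 23 alternatives gave differences from -0.17 to -0.11. Eif4ebp1, at 2.11 to 2.17 (median 2.14) and 2.15 to 2.16 (median 2.15), and Eif4ebp3, at a mean of 3.92, lay below the lower limit and were not tested.

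**Figure D3:**
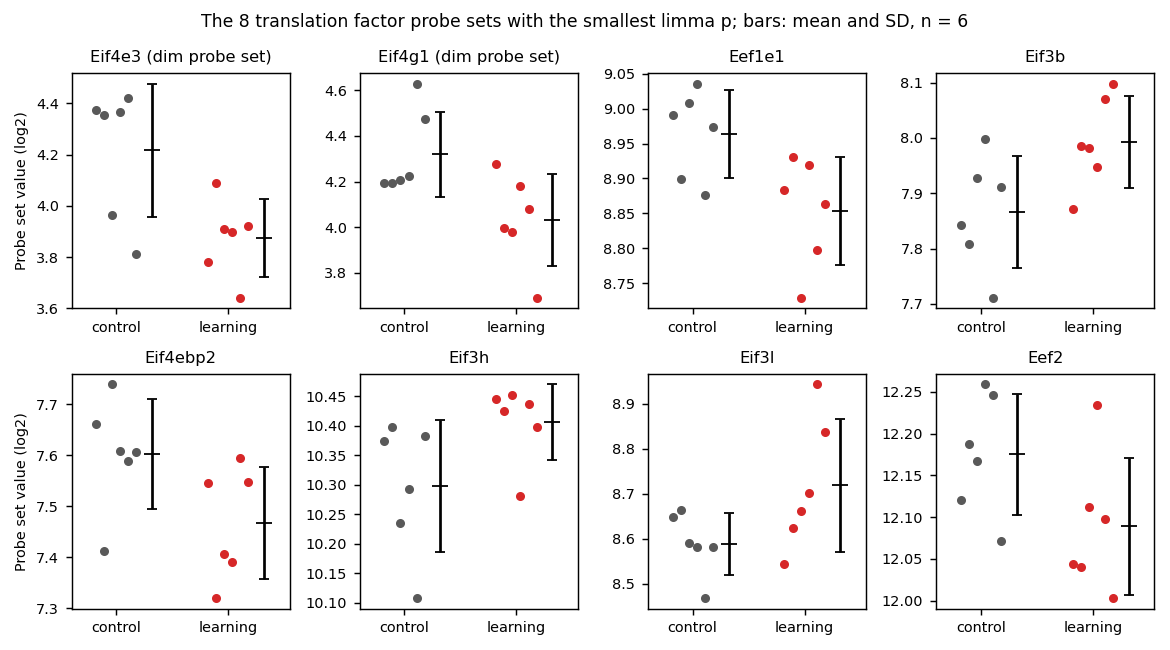
Values (log2, vertical axis, a scale of its own in each panel) of the 8 tested members with the smallest limma p on each control (grey) and spatial learning (red) array, with mean and SD, n = 6 each. In every panel the groups overlap. Eif4e3 and Eif4g1 are shown on dim probe sets, with means of 4.05 and 4.18.

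The tested transcripts with eIF5 and eIF6 symbols were close to 0, though not all of their proteins act in initiation. Eif5a, whose protein carries the modified amino acid hypusine and helps ribosomes through hard stretches, ran from 10.87 to 11.11 (median 10.88) in the control task group and from 10.92 to 11.02 (median 10.97) in the spatial learning group. Control replicate 6 alone lay above the spatial learning arrays, so leaving it out raises the difference by construction. The difference of 0.041 (SE 0.043, limma adjusted p = 0.762) became 0.078 without that array, 0.098 without the 3 arrays that stood apart and 0.014 with the hexokinase covariate (limma adjusted p from 0.321 to 0.977 over all alternatives). Eif5b, which encodes the subunit-joining GTPase, stood at 0.024. Eif6, which keeps the large ribosomal subunit from joining too early, ran from 8.81 to 8.99 (median 8.88) and from 8.82 to 9.07 (median 8.93), a difference of 0.038 (SE 0.050, limma adjusted p = 0.817).

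No elongation factor transcript passed the test. Eef1a1, on its brighter probe set, ran from 13.98 to 14.14 (median 14.08) in the control task group and from 14.04 to 14.19 (median 14.07) in the spatial learning group. The difference was 0.016 (SE 0.034, 95% interval -0.058 to 0.090, limma adjusted p = 0.895). The second Eef1a1 probe set, whose suffix marks probes that can match several transcripts, gave -0.035. Eef1a2, the form of eEF1A used by mature neurons and muscle, ran from 12.07 to 12.56 (median 12.49) and from 12.14 to 12.42 (median 12.33). Control replicate 6 had the lowest value, so leaving it out enlarges a negative difference by construction. The difference of -0.094 (SE 0.079, limma adjusted p = 0.695) became -0.16 without that array, -0.17 without the 3 arrays that stood apart and -0.059 without spatial learning replicate 3 (limma adjusted p from 0.314 to 0.882 over all alternatives).

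The exchange complex of eEF1A, encoded by Eef1b2, Eef1d and Eef1g, stood at 0.0038, 0.12 and -0.020, and Eef1d had the widest spread of these, with 4 of 6 spatial learning arrays above and 1 below all controls. Eef1e1, which despite its symbol encodes a scaffold protein of the tRNA synthetase complex, ran from 8.88 to 9.04 (median 8.98) in the control task group and from 8.73 to 8.93 (median 8.87) in the spatial learning group. In 3 of 6 spatial learning rats it lay below the lowest control. The difference was -0.11 (SE 0.046, 95% interval -0.21 to -0.011, limma p = 0.0320, limma adjusted p = 0.434, exact permutation p = 0.0260, unadjusted). Eef1akmt1, an eEF1A methyltransferase gene, had the widest interval of all members, -0.31 to 0.60 around 0.14.

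Eef2 encodes the translocase, and Eef2k the kinase that halts it. Eef2 ran from 12.07 to 12.26 (median 12.18) in the control task group and from 12.00 to 12.23 (median 12.07) in the spatial learning group. In 3 of 6 spatial learning rats, replicates 1, 2 and 6, it lay below the lowest control, and replicate 4 lay near the top of the control range. The difference was -0.086 (SE 0.044, 95% interval -0.18 to 0.0085, limma adjusted p = 0.493), and with the hexokinase gap as a covariate it was 0.011. Eef2k ran from 6.01 to 6.46 (median 6.35) and from 6.22 to 6.58 (median 6.40), a difference of 0.14 (SE 0.091, 95% interval -0.057 to 0.34, limma adjusted p = 0.603). That difference was 0.064 with the hexokinase covariate and 0.087 without control replicate 2. Its 3 other probe sets had means of 1.85 to 3.17 and were not tested.

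Many transcripts of the translation machinery start with a C followed by a run of pyrimidines, the TOP element, through which mTOR and Larp1 control their translation. A list of known TOP transcripts held 8 member genes with 10 probe sets. The starts of the 5 that have an entry in the RefSeq promoter table (GRCr8) are shown because they are the part of these mRNAs that marks the class. Each line runs from 10 bases before to 20 bases after the annotated start, 5′ to 3′ on the gene's strand, and capitals mark a C followed by at least 4 pyrimidines that begins within 5 bases of the start.
Eef1a1 (chr8:88225050-88225079, minus strand): ttggacgttCTTTTTCgcaacgggtttgcc
Eef1b2 (chr9:72074081-72074110, plus strand): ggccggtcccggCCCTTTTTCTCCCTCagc
Eif3f (chr1:172369052-172369081, plus strand): cccttccgttctagCCTCTCTCTTTCTCgg
Eef1g (chr1:215289805-215289834, plus strand): ctgcggaatcaccatggcggctggggtaag
Eef2 (chr7:9189219-9189248, minus strand): ccgcagccgccgccatcgtcggcgcgcttc
Such a run, sought on the gene's strand only, was found in 3 of these 5 windows, in 13 of the 51 member genes with an entry, and in 17.0% of all 33469 entries in the table. A member gene counted once if any of its entries had a run, while the 17.0% is a share of entries, so the units are not the same. A window without one says only that these letters are not near the annotated start. Of the 10 TOP probe sets 7 stood higher, with a median of 0.020 and differences from -0.086 (Eef2) to 0.12 (Eef1d), and 0 passed the test. The other 48 tested probe sets had 24 higher and a median of 0.0050.

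The spread between rats was read from the SD within groups. The median within-group SD was 0.10 over the 58 members, and 0.12 both over all probe sets tested and over the 4880 with a mean in the members' interquartile range. Within the control task group, replicate 5 held the lowest value of 22 members and the highest of 8, while the other controls held the lowest of 4 to 10. Within the spatial learning group, replicates 1 and 5 each held an extreme value in 26 members and replicates 2 and 6 in 11 each. Among controls an extreme value was held in 30 members by replicate 5, 21 by replicate 6, 17 by replicate 3 and 16 by each of the others. The part of choroid plexus or meningeal transcripts in these counts was not tested.

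**Figure D4:**
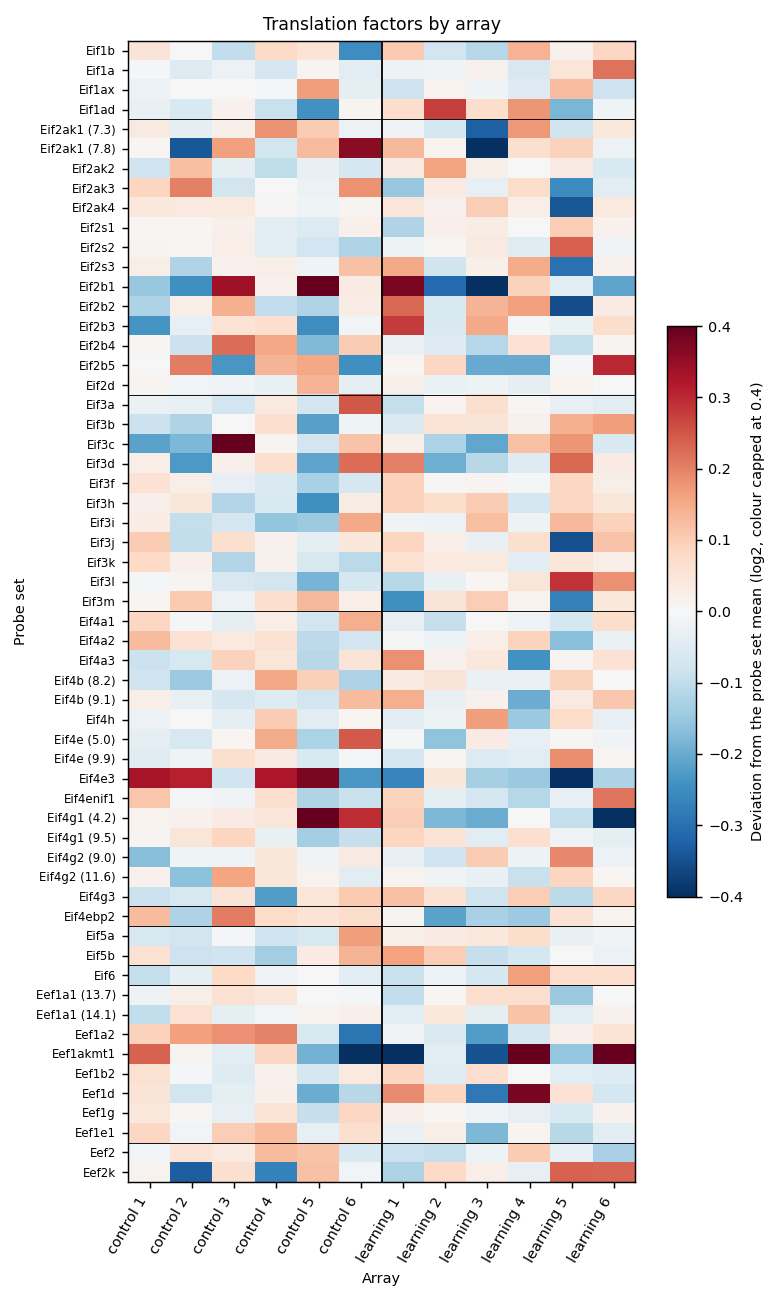
Deviation of each tested member (rows, grouped by factor) from its own mean over 12 arrays (log2, colour, capped at 0.4), for the 6 control arrays left and the 6 spatial learning arrays right of the line. No block of rows changes colour at the line, and the deepest colours fall on scattered arrays of both groups. In Eef1akmt1 these are control replicate 6 and spatial learning replicates 1, 4 and 6. In Eif2b1 they are control replicate 5 and spatial learning replicate 3.

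Other genes of translational control were counted in the same fit, each through its brightest probe set, and 0 passed the adjusted test. Among 23 genes of mTOR and its neighbours 13 stood higher (median 0.011). Rheb, the GTPase that switches mTOR complex 1 on, stood at 0.088, Pdpk1, a kinase upstream of Akt, at 0.089, and Prkaa1, a catalytic subunit of the energy sensor AMPK, at -0.17. These were the 3 of 23 with an unadjusted limma p under 0.05, beside 10.9% of all probe sets tested. Their limma adjusted p ran from 0.429 to 0.447. Of 14 integrated stress response genes, which regulate eIF2 alpha phosphorylation or respond to it, 7 stood higher (median -0.0055) and 0 had an unadjusted p under 0.05. Ppp1r15b, the constitutive eIF2 alpha phosphatase subunit, stood at -0.14.

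Among 20 genes for cap, tail and mRNA binding 9 were higher (median -0.017). Stau1, an RNA transport protein, stood at 0.12, Cpeb1, a regulator of poly(A) tails in dendrites, at 0.17 and Ddx3x, a helicase of mRNA leaders, at -0.13. These were the 3 of 20 with an unadjusted limma p under 0.05, beside 10.9% of all probe sets tested. Their limma adjusted p ran from 0.428 to 0.432. Of 8 genes for termination and ribosome recycling 5 were higher (median 0.033), Abce1 with the smallest p at 0.11. A list of 19 aminoacyl-tRNA synthetase genes and their scaffold genes Aimp1 and Aimp2 had 16 of 21 higher (median 0.030), beside 53.7% of all probe sets, with 0 at an unadjusted p under 0.05 and differences from -0.050 to 0.11. The 3 mitochondrial translation factor genes tested lay between -0.033 and 0.034.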

How the data were processed

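The deposited values are log2 probe set summaries of 12 Affymetrix RAE230A arrays, made by the authors with GCRMA per the submitters' processing notes (version and settings not given in the sources used here). The log2 scale was settled from the range, 0.134 to 14.8. GCRMA equalises the arrays, so that a change in total RNA cannot be seen, and compresses dim probe sets. Genes were named through the platform annotation: of the probe sets that are not controls, 12783 had 1 symbol, 312 several and 2771 none here, and all 66 members were found by Entrez identifier in the RefSeq table, with 0 symbols changed.

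Probe sets other than the 57 controls with a mean of at least 4 entered a single linear model per probe set in R 4.3.3 (limma 3.58.1, with group and no other term, a variance prior that follows the mean level, 2-sided p, Benjamini-Hochberg over all 9610). SEs and 95% intervals are limma's. Exact permutation tests used all 924 regroupings of 12 arrays, 2-sided, with a smallest p of 0.00216. Lists are described by counts and medians, with no test. The labels call the arrays biological replicates and name no batch. Precision is limited by having 6 arrays in each group.

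Named genes were the 14 members with the smallest p, 17 genes chosen by role (of which eIF3 subunit e and eIF5 are not analysed here), and up to 3 per pathway list. Members and lists were chosen with earlier results of these data known. The fit was tested on simulated data of the same layout (9611 probe sets). It called 83% of 100 true shifts of 0.5 and 95% of 100 true shifts of 1 on the log2 scale, plus 13 probe sets with no shift. Each planted shift exceeds the largest member difference in size, -0.34 in Eif4e3. Smaller shifts were not simulated, so these shares do not give the power for differences like those of the members. Alternatives were other filters, scalings, eBayes settings, array weights, a rank-sum test, the replicate number, the hexokinase gap, and leaving out arrays.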

Additional observations from a re-analysis of the deposited data

Results flagged for a closer look

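In 15 of 116 groups of 6 arrays (58 tested members in 2 groups) 1 array lay far from the other 5, by Dixon's test at its 95% critical value, which chance passes in about 5% of groups. The same count over all probe sets was not made, and members share the same arrays, so the count cannot be read as a trait of these factors. In the spatial learning group replicate 5 did so in 4 members, at 10.01 in Eif2s2, 5.82 in Eif2ak4, 8.16 in Eif3j and 10.07 in the bright Eif4e probe set. Spatial learning replicate 4 was lowest in Eif3h (10.28) and Eif3k (9.09), replicate 3 in an Eif2ak1 probe set (7.29) and replicate 2 in the dim Eif4e probe set (4.86). In the control task group replicate 6 was highest in Eif5a (11.11) and Eif3a (10.36), replicate 5 in Eif1ax (10.37) and Eif2d (6.98), replicate 2 in Eif2ak2 (6.44) and replicate 4 in Eif4h (10.22). Control replicate 1 was lowest in an Eif4g2 probe set (8.84). All 15 of these values stayed in the results given above.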

How the results depend on the processing

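Under every alternative run, 0 members passed the adjusted test, and the smallest adjusted p of a named member was 0.0693. Of all 9610 probe sets, 3 passed with array weights, 3 without control replicate 6 and 5 without the 3 arrays that stood apart. Under each other alternative 0 of all probe sets passed, so the 0 is not a trait of the members. The median difference of the members lay between 0.0036 and 0.016 under the alternatives that kept all arrays, and between -0.0037 (without spatial learning replicate 1) and 0.020 when single arrays were left out. At an unadjusted p under 0.05 there were 1 higher and 3 lower members, beside 6.36% and 4.55% of all probe sets. The higher count was 0 with arrays centred on the median, with the replicate block and with the hexokinase gap as a covariate. Of all probe sets 5.78%, 4.19% and 3.54% were higher by that rule in these settings. With array weights the higher count was 2, beside 5.76% of all probe sets. The lower count was 1 with a filter at a mean of 6 and 5 with array weights, beside 5.03% and 5.21% of all probe sets. Leaving out single arrays gave 0 to 4 higher and 2 to 5 lower, beside 4.58% to 6.60% and 3.50% to 5.58% of all probe sets. Without control replicate 6 there were 4 and 5, beside 6.30% and 5.58% of all probe sets, with 3 adjusted calls among all 9610. The higher count was 2 without control replicate 1, spatial learning replicate 1 or 4, beside 6.01%, 5.16% and 6.08% of all probe sets. It was 0 without control replicate 5, spatial learning replicate 2 or 6, beside 4.58%, 6.60% and 6.17%. The count of members whose groups did not overlap, 0, was 0 to 1 when single arrays were left out (the dim Eif4g1 probe set without spatial learning replicate 1, Eif3h without replicate 4) and 2 (Eif4e3 and Eif5a) without the 3 arrays that stood apart. Of all probe sets 0.916%, 1.14% and 4.82% did not overlap under these exclusions. The causes were not tested.

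Of 571 comparisons of 25 named probe sets with their alternatives, 555 kept direction and side of the threshold and 16 turned direction. Leaving out single arrays, Eef1a1 ran from -0.0050 (without spatial learning replicate 4) to 0.030 and was -0.0017 without control replicate 1. With the hexokinase covariate Eef2, at -0.086 without it, was 0.011, Eif2s1 -0.026 and Eif4e -0.0023. The gap nearly follows the group, so these turns cannot be assigned to either. Leaving out single arrays, Eif2ak4 ran from -0.062 to 0.027, Eif2s1 from -0.0032 to 0.041 and Eif4e from -0.025 to 0.027, each turning without spatial learning replicate 5. With array weights Eif4e was -0.0063 and Eif2b5 0.014. Eif2b5 was 0.00014 with quantile normalization and ran from -0.066 to 0.035 when single arrays were left out, above 0 without control replicate 2 (0.035), 4 (0.021) or 5 (0.025) or spatial learning replicate 3 (0.035) or 4 (0.034).

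Replicate numbers are shared between groups, but the arrays with the same number did not deviate together (correlations from -0.17 to 0.082 over 6 pairs, 1 of 6 controls best with its own number). Whether the number stands for anything the rats or arrays shared is not given in the labels and cannot be settled from these correlations. With the replicate block 0 members passed, where 0 of all probe sets did. At an unadjusted p under 0.05, 0 were higher and 3 lower, beside 4.19% and 3.81% of all probe sets.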
